A study of Homo sapiens with 6 samples.

Results

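The H/ACA box and Cajal body RNA genes were the rows of the deposited values whose symbol starts with SNORA or SCARNA. They were chosen by symbol and numbered 124 of 21863 gene symbols, 100 SNORA and 24 SCARNA genes, and none was listed on more than 1 line. The levels were measured in HepG2 cells, an established line of human hepatic tumor origin. For each of 3 conditions Ago2-IP and total RNA were sequenced as 1 library each, 6 in all: cells not transfected (labelled NT, time 0 h), transfected with a double-stranded RNA mimicking *miR-195*, and transfected with one mimicking *miR-497*. Transfection was with 5 nM of either mimic, and RNA was taken 24 h later. Ago2-IP is the RNA recovered with an antibody against Argonaute 2, the protein that holds miRNAs and their targets, and no library of an unrelated antibody was analysed here. With 1 library per group there is no spread between replicates and no test between groups, and the non-transfected cells differed from the transfected cells in time and in transfection as well as in the mimic. The intervals given are 95% exact counting intervals of reads in 2 libraries. They cover counting error only, since reads without molecular identifiers are not independent molecules.

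H/ACA RNAs are short nuclear RNAs that fold into hairpins and end in the letters ACA followed by a few bases. Bound by dyskerin and its partners, they guide the conversion of uridine to pseudouridine, in ribosomal RNA for most SNORA members and in spliceosomal RNA for the small Cajal body RNAs (SCARNA). Some SCARNA members also carry the C and D boxes of the 2′-O-methylation guides, or carry those alone. In human cells nearly all are cut out of introns of host genes, and they have neither a long coding sequence nor a poly-A tail. A small RNA made from SCARNA15 (also called ACA45) has been described as bound by Argonaute.

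The sequences of members on which the results turn were read from GRCh37, the assembly also called hg19, over the GENCODE gene interval on the strand of the gene, and are written with T. The first 4 are H/ACA RNAs, shown because they were among the most abundant members in Ago2-IP or share a host intron cluster, and their capitals mark the last ACA. The capitals in SCARNA5 mark the C box letters TGATGA. SNORA63 and SNORA4 lie in introns of EIF4A2 at chr3:186505089-186505220 and chr3:186505401-186505538 on the plus strand. SNORA64 lies in an intron of RPS2 at chr16:2012974-2013107 (minus strand), SNORA23 in an intron of IPO7 at chr11:9450320-9450501 (plus strand) and SCARNA5 in an intron of ATG16L1 at chr2:234184373-234184648 (plus strand).
SNORA63: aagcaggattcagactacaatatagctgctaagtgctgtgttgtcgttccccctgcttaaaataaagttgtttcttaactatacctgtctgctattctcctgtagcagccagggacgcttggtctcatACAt
SNORA4: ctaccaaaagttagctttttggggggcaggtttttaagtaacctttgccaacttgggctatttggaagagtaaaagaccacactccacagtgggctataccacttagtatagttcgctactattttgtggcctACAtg
SNORA64: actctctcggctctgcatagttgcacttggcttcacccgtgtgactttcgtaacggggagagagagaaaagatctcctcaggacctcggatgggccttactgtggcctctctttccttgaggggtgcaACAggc
SNORA23: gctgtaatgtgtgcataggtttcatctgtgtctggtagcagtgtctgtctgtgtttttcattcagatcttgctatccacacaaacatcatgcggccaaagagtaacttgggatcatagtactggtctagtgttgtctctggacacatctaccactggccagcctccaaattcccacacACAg
SCARNA5: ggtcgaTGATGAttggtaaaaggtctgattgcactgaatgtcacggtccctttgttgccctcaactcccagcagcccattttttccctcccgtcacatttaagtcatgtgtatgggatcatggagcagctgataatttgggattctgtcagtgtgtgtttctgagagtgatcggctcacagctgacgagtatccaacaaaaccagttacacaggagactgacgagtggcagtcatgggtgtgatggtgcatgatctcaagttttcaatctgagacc

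The mature miRNAs that the mimics stand for are shown because they share their seed, bases 2 to 8, given in capitals from RefSeq.
hsa-miR-195-5p: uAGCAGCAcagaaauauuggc
hsa-miR-497-5p: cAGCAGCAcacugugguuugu

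The letters ACA stood within the last 10 bases of 94 of the 105 members placed on GRCh37 (89.5%), against 9.51% of 35116 RefSeq promoter windows of 134 bases, the median length of the members. TGATGA was present in 7 of 17 placed SCARNA genes and in 2 of 88 placed SNORA genes (2.27%), and in 2.64% of the promoter windows. TGCTGCT, the sequence that pairs with the shared seed, was found in SNORA20 and SNORA31 of the 105 members (1.9%), and in 1.53% of the windows. Each sequence was searched on the strand of the gene only, and a match is a description of letters and not a site in use.

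Of the 105 placed members, 104 lay within a longer gene on the same strand, in 83 different hosts, and 103 of these shared no base with an exon of the host. The exception was SNORA31 in TPT1. Protein-coding genes hosted 95 members and noncoding genes 9, and 14 ribosomal protein genes hosted 17. The remaining 19 members, among them SCARNA2, SCARNA10, SCARNA15 and SCARNA17, were not placed, and no position or sequence is given for them.

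The read numbers behind the values were small in total RNA and larger in Ago2-IP. The deposited unit is RPKM, which divides reads by gene length and by the depth of the library, so whole reads could be inferred from each gene's length. In the order non-transfected, *miR-195*, *miR-497*, which is kept below, the mapped reads inferred were 24.7 M, 29.3 M and 31.0 M (M stands for mega, as in Mb) for total RNA. For Ago2-IP they were 16.8 M, 13.6 M and 10.7 M. For a gene of the median length 1 read was worth 0.302, 0.254 and 0.241 RPKM in total RNA and 0.443, 0.548 and 0.700 RPKM in Ago2-IP. The 9 hepatocyte markers ranged from 1.52 RPKM (TTR) to 4884 RPKM (AFP) in non-transfected total RNA, with ALB at 61.4 RPKM and HNF4A at 40.0 RPKM. Of the 6 markers of other cell types PTPRC and CD3E were listed at 0 in every library, with a summed level of at most 0.802 RPKM for all 6.

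More members were detected in Ago2-IP than in total RNA in each condition. RPKM was above 0 for 97, 94 and 100 of the 124 members in total RNA, and in Ago2-IP for 108, 115 and 111. Among all 21863 genes the share above 0 was 69.6%, 71.7% and 72.2% for the total RNA libraries. It was 68.5%, 70.0% and 66.2% for the Ago2-IP libraries, so all genes went the other way in each condition. Of the 124, 119 were detected in at least 1 library and 82 in all 6. The 5 members at 0 in every library were SNORA9, SNORA11C, SNORA35, SNORA36C and SNORA70C, and SNORA35 lies within HTR2C, a serotonin receptor gene. Within a condition, 13, 23 and 15 members were above 0 in Ago2-IP alone, as were 870, 725 and 465 of all 21863 genes. In total RNA alone it was 2, 2 and 4 members and 1123, 1092 and 1788 of all genes. Across the 6 libraries no member was detected in total RNA alone, and 11 were detected in Ago2-IP alone. Of these 11, 3 were seen in all 3 Ago2-IP libraries: SNORA74B (6.41, 45.4 and 23.5 RPKM), SCARNA21 (1.72, 7.45 and 7.48 RPKM) and SNORA80 (1.75, 9.18 and 1.38 RPKM). Against a floor of 3 reads in total RNA, SNORA74B was at least 10.8-fold, 90.5-fold and 49.4-fold higher in Ago2-IP.

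The gap between the fractions was wider for abundance than for detection. Members at 10 RPKM or more numbered 8, 9 and 8 in total RNA against 43, 77 and 63 in Ago2-IP, and members at 100 RPKM or more numbered 0, 0 and 0 against 5, 18 and 10. No share of all genes stands beside these counts. RPKM over all genes summed to 319830, 311110 and 333420 in total RNA and to 75019, 116070 and 67345 in Ago2-IP. A fixed level is therefore not the same share of that sum in the 2 fractions. The highest level in any total RNA library was 24.2 RPKM (SNORA40, non-transfected), and the highest in Ago2-IP was 1411 RPKM (SNORA63, *miR-195*). In RPM, reads per M mapped reads, all members together took 51.4, 49.3 and 52.0 in total RNA, with intervals of 48.6 to 54.3, 46.8 to 52.0 and 49.5 to 54.6, which overlapped. In Ago2-IP they took 475, 1295 and 821 (464 to 485, 1276 to 1314 and 803 to 838), and these intervals did not overlap. These totals are not scaled. Scaling to the median gene would add −0.52 (*miR-195*) and 0.27 (*miR-497*) to their log2 ratios to non-transfected. The order of *miR-195* and *miR-497* therefore depends on scaling. The SNORA genes accounted for 174, 868 and 487 of these and the SCARNA genes for 301, 427 and 333.

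**Figure D1:**
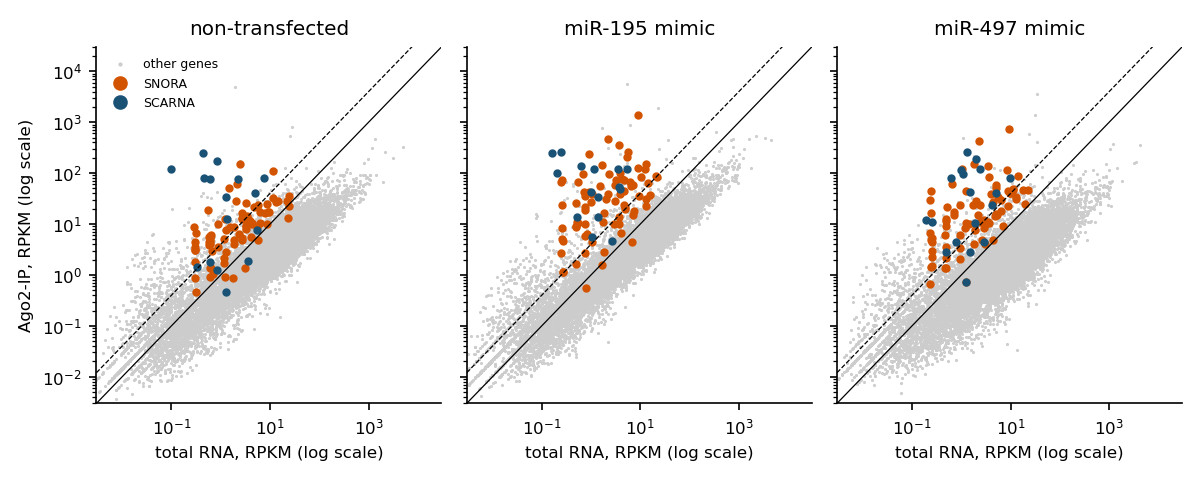
RPKM in Ago2-IP (vertical) against total RNA (horizontal) for each condition, both on log scales, for genes above 0 in both libraries; orange points are SNORA genes, blue points SCARNA genes, gray points all other genes, the solid line marks equal levels and the dashed line a ratio of 4. Of the members, 47 of 95, 74 of 92 and 67 of 96 lie on or above the dashed line, while most other genes lie below the solid line.

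Of the members above 0 in both libraries of a condition, 47 of 95 without transfection were at least 4-fold higher in Ago2-IP, where all genes gave 3.38%. With *miR-195* the count was 74 of 92 members (all genes 4.44%), and with *miR-497* it was 67 of 96 (all genes 3.74%). No member was at least 4-fold lower in Ago2-IP in any condition, where all genes gave 37.5%, 18.2% and 48.5%. The median log2 ratio of Ago2-IP to total RNA over these members was 1.97, 3.89 and 2.74, and over all genes it was −1.62, −1.09 and −1.94. Scaling of each library to its median gene would add 1.64, 1.12 and 2.01 to every log2 ratio, and the counts at least 4-fold higher would be 86, 85 and 94, with 11.2%, 9.44% and 12.9% of all genes. These ratios were part of the reason for describing the members, so they are given as a description.

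Every Ago2-IP value was above every total RNA value for 89 of the 119 detected members, and the reverse held for 0. Among all 17441 genes above 0 in at least 1 library the shares were 6.43% and 61.8%. After scaling the first count was 100 members and the share of all genes 24.1%. The only member with a counting interval below 1 for this ratio was SNORA61, at 22.7 RPKM in total RNA and 13.3 RPKM in Ago2-IP without transfection, a ratio of 0.584 (0.366 to 0.909), which scaling to the median gene turned to a log2 ratio of 0.86. With the mimics its ratio was 2.30 (1.59 to 3.31) and 1.25 (0.811 to 1.89).

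The members carry no poly-A tail, and the methods say that libraries were made with or without poly-A selection without saying which. The study calls its total RNA libraries mRNA-seq, so these may not be unselected RNA. It also prepared the Ago2-IP libraries from far less RNA than the total RNA libraries. The replication-dependent histone genes, whose mRNAs have no poly-A tail, had a median log2 ratio of Ago2-IP to total RNA of 3.95 over 31 genes, 4.77 over 35 and 1.84 over 37. The box C/D genes (SNORD), intronic guide RNAs of another class, had medians of 1.23 over 121 genes, 1.44 over 130 and 1.72 over 130. A difference in selection between the fractions and binding to Argonaute 2 cannot be told apart for the members. As these are bulk libraries, fewer cells with an RNA and less RNA per cell cannot be told apart either.

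**Figure D2:**
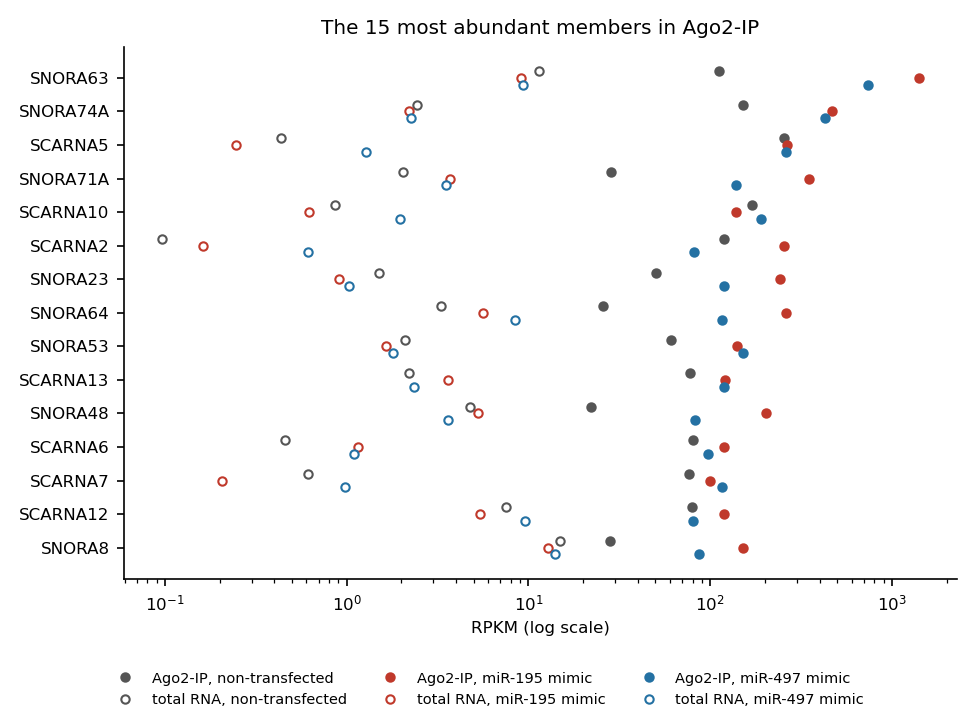
RPKM on a log scale of the 15 members with the highest mean over the 3 Ago2-IP libraries, with filled circles for Ago2-IP, open circles for total RNA and colors for the conditions. All filled circles lie to the right of all open circles of the same member, and in total RNA none of these members exceeds 14.8 RPKM.

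The 15 members with the highest mean RPKM in Ago2-IP were 8 SNORA and 7 SCARNA genes. The lowest of them, SNORA8, had a mean of 88.9 RPKM and the next member down, SNORA27, a mean of 65.2 RPKM. The 5 highest members of each library held 48.9%, 39.6% and 43.7% of the member reads in Ago2-IP and 27.5%, 23.2% and 23.6% in total RNA.

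SNORA63, the first by this order, stood at 11.4, 9.09 and 9.33 RPKM in total RNA (38, 36 and 39 reads). In Ago2-IP it stood at 112, 1411 and 736 RPKM (254, 2594 and 1058 reads). Its Ago2-IP level was 9.82-fold (6.97 to 14.2), 155-fold (112 to 222) and 78.9-fold (57.3 to 112) that in total RNA. The total RNA values lay close together, whereas the 3 Ago2-IP values as deposited were well separated, with non-transfected lowest and *miR-195* highest. The log2 ratios of the mimic libraries to the non-transfected one were 3.66 and 2.72. Scaling to the median gene would add −0.52 and 0.27 to them, which brings the mimic libraries close together. SNORA74A, in an intron of the nuclear matrix protein gene MATR3, stood at 2.43, 2.22 and 2.26 RPKM against 151, 470 and 428 RPKM. SNORA71A, in an intron of the noncoding gene SNHG17, stood at 2.05, 3.70 and 3.51 RPKM against 28.4, 351 and 139 RPKM. SNORA64, in an intron of the ribosomal protein gene RPS2, stood at 3.32, 5.60 and 8.43 RPKM against 25.7, 261 and 116 RPKM. For SNORA71A and SNORA64 the *miR-195* Ago2-IP library was more than 10-fold above the non-transfected one, with ratios of 12.4 (9.59 to 16.2) and 10.1 (7.71 to 13.6). SNORA23 (IPO7) stood at 50.6, 242 and 120 RPKM in Ago2-IP and at no more than 1.50 RPKM in total RNA. SNORA48, in an intron of the translation factor gene EIF4A1, stood at 22.0, 204 and 82.7 RPKM in Ago2-IP. SNORA53 (SLC25A3) stood at 61.1, 141 and 152 RPKM and was the only SNORA gene of these 15 whose *miR-497* value was the highest as deposited. SNORA74A, with log2 ratios to non-transfected of 1.635 (*miR-195*) and 1.50 (*miR-497*), would also be highest with *miR-497* after scaling to the median gene.

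The abundant SCARNA genes overlapped with the abundant SNORA genes in their ratios to total RNA, with mean log2 ratios of 3.64 (SCARNA12) to 9.31 (SCARNA2) against 2.38 (SNORA8) to 7.08 (SNORA74A). As deposited, the SCARNA genes other than SCARNA2 differed by less than 2-fold between the highest and lowest Ago2-IP library. After scaling SCARNA10 became the widest of them, with log2 ratios to the non-transfected library of −0.81 (*miR-195*) and 0.43 (*miR-497*). SCARNA5 (U87) was at 0.436, 0.245 and 1.28 RPKM in total RNA, from 3, 2 and 11 reads. In Ago2-IP it was at 254, 264 and 261 RPKM, from 1188, 1000 and 772 reads, and the ratios of the mimic libraries to the non-transfected one were 1.04 (0.956 to 1.13) and 1.03 (0.936 to 1.12). Scaling to the median gene turned the former to a log2 ratio of −0.46. The ratio to total RNA was 582, 1077 and 204, with lower bounds of 199, 297 and 113. SCARNA6 (U88), from another intron of the same host, stood at 80.6, 118 and 96.7 RPKM in Ago2-IP and at up to 1.15 RPKM in total RNA. SCARNA10 (U85), which carries both kinds of guide and acts on U5, stood at 170, 139 and 190 RPKM in Ago2-IP against 0.858, 0.620 and 1.96 RPKM. SCARNA2, a methylation guide for U2, had the lowest total RNA level among the 15, 0.0963, 0.162 and 0.615 RPKM from 1, 2 and 8 reads. Its Ago2-IP level was 119, 253 and 81.8 RPKM, from 841, 1448 and 366 reads. SCARNA7 (U90) stood at 76.2, 100 and 116 RPKM in Ago2-IP, SCARNA13 (U93) at 77.8, 121 and 118 RPKM and SCARNA12 (U89) at 79.4, 120 and 80.0 RPKM. SCARNA12 was the SCARNA gene with the highest total RNA level, 7.49, 5.43 and 9.57 RPKM.

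The highest members in total RNA were mostly not those highest in Ago2-IP, and the order over all members was not compared. The 10 members with the highest mean there were SNORA40, SNORA18, SNORA61, SNORA33, SNORA8, SNORA81, SNORA4, SNORA67, SNORA32 and SNORA63, and only SNORA8 and SNORA63 were also among the 15 of Ago2-IP. SNORA40 stood at 24.2, 21.5 and 22.4 RPKM there, against 22.5, 85.6 and 45.8 RPKM in Ago2-IP. Without transfection its ratio was 0.928 (0.633 to 1.35), or 1.53 on the log2 scale after scaling, and with the mimics 3.99 (3.02 to 5.30) and 2.05 (1.46 to 2.87). SNORA33, in an intron of RPS12, stood at 21.9, 13.3 and 12.6 RPKM against 28.6, 31.5 and 31.1 RPKM. Of the 35 members with 10 or more reads in every library, SNORA74A, SNORA53, SNORA63, SCARNA13 and SCARNA9L had the highest mean log2 ratios (7.08 to 5.00) and SNORA61, SNORA62, SNORA40, SNORA33 and SNORA81 the lowest (0.25 to 1.05).

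Of the remaining SCARNA genes, SCARNA9, a guide for U2, stood at 4.92, 3.77 and 4.94 RPKM against 40.2, 54.1 and 40.9 RPKM, and SCARNA17 (U91) at 12.4, 33.3 and 10.3 RPKM in Ago2-IP. SCARNA16 stood at 7.63, 49.5 and 23.6 RPKM in Ago2-IP, and at 5.40, 3.83 and 4.14 RPKM in total RNA. SCARNA1 was at 0, 0 and 0.195 RPKM in total RNA, the last from 1 read, and at 2.15, 37.2 and 11.9 RPKM in Ago2-IP. SCARNA15 was low in every library. In total RNA it stood at 1.27, 0.268 and 1.27 RPKM from 4, 1 and 5 reads. In Ago2-IP it stood at 0.468, 0 and 0.739 RPKM from 1, 0 and 1 reads. Its ratio without transfection was 0.367 with an interval of 0.00746 to 3.71, so a difference between the fractions was not detectable at this depth. The values of SCARNA15 are for the whole gene and do not show a small RNA made from it separately. SCARNA27 was also low in Ago2-IP, at 1.89, 4.66 and 4.47 RPKM against 3.53, 2.70 and 2.82 RPKM in total RNA. The other SCARNA genes seen in total RNA, SCARNA3, SCARNA4, SCARNA8, SCARNA11, SCARNA18 and SCARNA22, stood between 0 and 1.48 RPKM there and between 0 and 13.7 RPKM in Ago2-IP.

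The Ago2-IP libraries of the transfected cells held more of most members than that of the non-transfected cells. With *miR-195*, 76 of 106 members above 0 in both libraries were at least 2-fold higher (all genes 23.7%) and 4 were at least 2-fold lower (all genes 2.58%). With *miR-497*, 50 of 102 were at least 2-fold higher (all genes 3.48%) and 3 at least 2-fold lower (all genes 6.27%). The median log2 ratio of the members was 1.73 and 0.99, and that of all genes 0.48 and −0.23. Scaling to the median gene added −0.52 and 0.27 to every log2 ratio. The members' medians were then 1.22 and 1.25, and 59 and 57 members were at least 2-fold higher, with 9.05% and 4.81% of all genes. Both comparisons use the same non-transfected library. Of the 119 members above 0 in an Ago2-IP library, 77 stood in the order non-transfected, *miR-497*, *miR-195* from low to high (all genes 16.6%). After scaling the count was 56 (all genes 13.8%). The *miR-195* library was the highest for 92 of them, not far from the 69.7% of all genes, and for 67 after scaling (all genes 38%).

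In total RNA the members were near their non-transfected level. With *miR-195*, 8 of 88 members were at least 2-fold higher (all genes 5.81%) and 13 at least 2-fold lower (all genes 3.2%). With *miR-497*, 11 of 90 were at least 2-fold higher (all genes 6.67%) and 6 at least 2-fold lower (all genes 2.11%). The medians were −0.08 and −0.02 on the log2 scale, and 72 of the 124 members had fewer than 10 reads in every total RNA library. Counting intervals of the mimic ratio lay above 1 for 2 members and below 1 for 2 with *miR-195*, and for 2 and 1 with *miR-497*. In Ago2-IP they lay above 1 for 76 members and below 1 for 2 with *miR-195*, and for 51 and 1 with *miR-497*. After scaling, *miR-195* gave 59 above and 6 below, and *miR-497* gave 57 and 1. Reads were inferred for the members and not for all genes, so no share of all genes stands beside these counts. The members below 1 in Ago2-IP as deposited were SCARNA10 and SNORA41 with *miR-195* and SCARNA2 with *miR-497*.

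**Figure D3:**
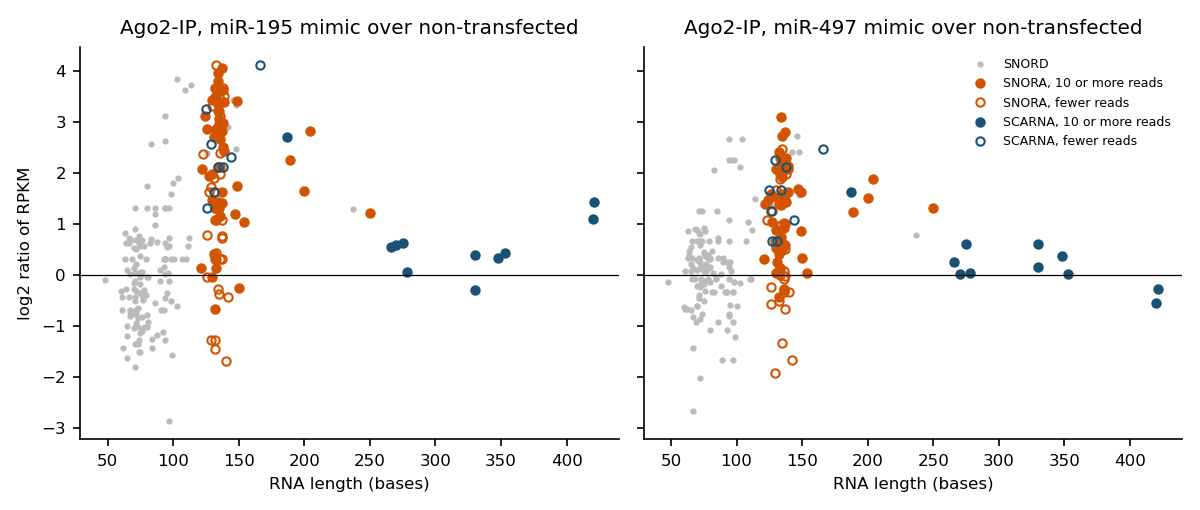
Log2 ratio of Ago2-IP RPKM with each mimic over non-transfected (vertical) against RNA length in bases (horizontal); orange and blue circles are SNORA and SCARNA genes, filled where each Ago2-IP library held 10 or more reads, and gray points are SNORD genes. Members near 130 bases reach log2 ratios above 3 in the *miR-195* panel, while the 10 members above 260 bases lie between −0.30 and 1.42.

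The size of the difference varied with the length of the RNA. The length bands were set after the values were seen, so they are a description. Among the 107 members up to 150 bases, 89 could be compared with *miR-195* and had a median log2 ratio of 1.98, with 67 at least 2-fold higher. The 7 members over 150 and up to 260 bases (SCARNA1, SCARNA16, SNORA23, SNORA53, SNORA62, SNORA74A and SNORA74B) had a median of 2.26, and all 7 were at least 2-fold higher. The 10 members above 260 bases, all of them SCARNA genes (2, 5, 6, 7, 9, 9L, 10, 12, 13 and 17), had a median of 0.49 with 2 at least 2-fold higher, although each had 10 or more reads in every Ago2-IP library. With *miR-497* the medians of the 3 bands were 1.03, 1.50 and 0.10. Scaled to the median gene, the medians with *miR-195* were 1.47, 1.74 and −0.02, so that the sign of the longest band turned, and with *miR-497* they were 1.29, 1.77 and 0.36. The median log2 ratios of Ago2-IP to total RNA were 6.05, 6.05 and 6.06 in the longest band and 1.50, 3.43 and 2.54 in the members up to 150 bases. In the band between them they were 4.86 over 5 members, 6.43 over 5 and 6.16 over 6, above those of the longest band with both mimics.

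The SNORD genes, which are not H/ACA RNAs, also differed by length. The 207 SNORD genes of up to 100 bases had a median log2 ratio in Ago2-IP of −0.11 over 124 genes with *miR-195* and 0.07 over 123 with *miR-497*. The 18 SNORD genes over 100 and up to 150 bases had medians of 2.43 over 16 genes and 1.49 over 15. Scaling to the median gene turned the sign of neither of the latter, which became 1.91 and 1.76. Which RNA sizes each library retained is not given in the sources used here, and the part of size in these values was not tested.

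**Figure D4:**
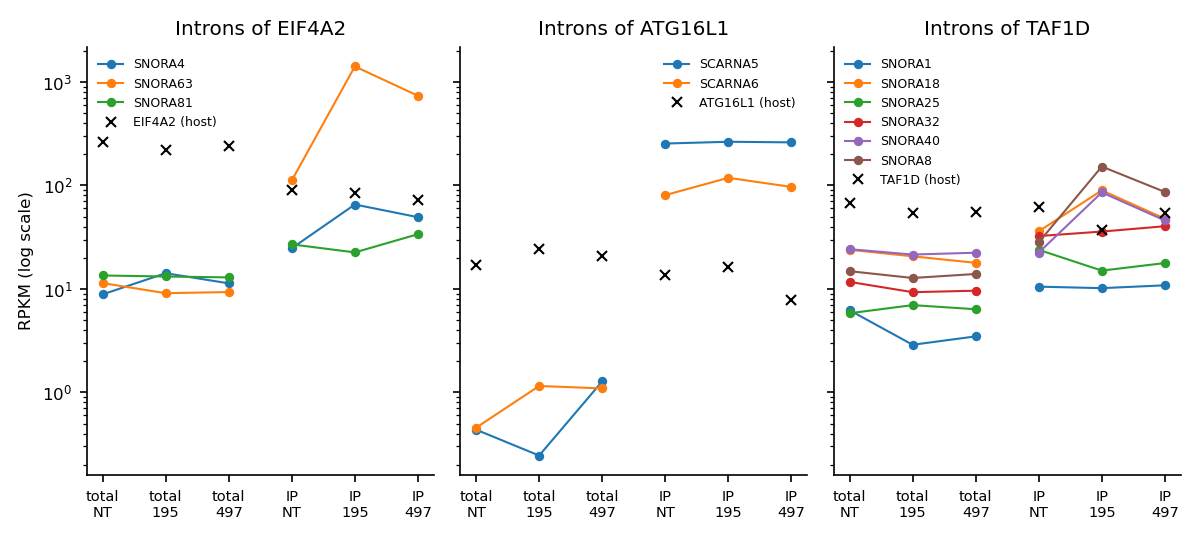
RPKM on a log scale in the 6 libraries (total RNA on the left, Ago2-IP on the right of each panel, each in the order NT, *miR-195*, *miR-497*) of members within introns of EIF4A2, ATG16L1 and TAF1D, with crosses for the host gene. In the Ago2-IP libraries SNORA63 spans 112 to 1411 RPKM while SNORA81, from the same host, spans 22.5 to 33.8 RPKM.

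Members from introns of 1 host differed strongly from each other in Ago2-IP for EIF4A2 and TAF1D. These hosts were picked after the values were seen, among 13 hosts of 2 or more members. Other hosts went either way in the log2 ratio of *miR-195* over non-transfected. In CNOT1 it was 2.96 for SNORA46 and 2.66 for SNORA50, and in TCP1 it was 3.49 for SNORA20 and −1.69 for SNORA29. EIF4A2, a translation initiation factor, stood at 262, 219 and 242 RPKM in total RNA. In Ago2-IP it stood at 90.9, 84.6 and 72.0 RPKM, and scaling to the median gene turned its log2 ratios from −1.53, −1.37 and −1.75 to 0.11, −0.25 and 0.26. Its 3 members had similar levels in total RNA, between 8.85 and 14.2 RPKM in every library. In Ago2-IP with *miR-195* over non-transfected, SNORA63 had a ratio of 12.6 (11.1 to 14.4), SNORA4 one of 2.65 (1.92 to 3.69) and SNORA81 one of 0.836 (0.562 to 1.23). The intervals of the 3 members did not overlap. Scaling to the median gene took the whole interval of SNORA81 below 1. With *miR-497* the ratios were 6.58, 2.00 and 1.25. The sequences of SNORA63 and SNORA4 above both end in a marked ACA. The values of SNORA81 imply a gene of 150 bases where RefSeq gives 177, so its read numbers are less certain.

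TAF1D, a gene for a subunit of the RNA polymerase I factor SL1, hosted the largest number of members, 6. In the order of the transcript they were SNORA40, SNORA18, SNORA8, SNORA1, SNORA32 and SNORA25. In Ago2-IP with *miR-195* over non-transfected the first 3 had ratios of 3.81 (2.73 to 5.39), 2.49 (1.89 to 3.29) and 5.39 (4.11 to 7.16). The last 3 had ratios of 0.967 (0.492 to 1.87), 1.10 (0.764 to 1.59) and 0.630 (0.381 to 1.02), each with an interval that included 1. Scaling, which added −0.52 to each log2 ratio, turned the ratio of SNORA32 below 1 and took the whole interval of SNORA25 below 1. TAF1D itself stood at 62.5, 37.4 and 54.3 RPKM in Ago2-IP. SCARNA5 and SCARNA6 lie in ATG16L1, an autophagy gene that stood at 13.5, 16.4 and 7.88 RPKM in Ago2-IP, below both of its members in each of these libraries.

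Over all members with a host in the deposited values, the log2 ratio of Ago2-IP to total RNA of the member was above that of its host in 75 of 76, 71 of 71 and 74 of 74 cases, in 59, 52 and 56 hosts. The medians were 1.91, 3.85 and 2.78 for the members and −1.82, −1.36 and −2.15 for their hosts, where all genes gave −1.62, −1.09 and −1.94. The members' ratios were part of the reason for describing them, so these counts are a description and not a test. Across these members Spearman's rho between the member's and the host's log2 ratio was 0.02, 0.03 and 0.07. These points share libraries, and members of 1 host share the host's value. In total RNA a member exceeded the level of its host in 3 of 78, 1 of 72 and 2 of 78 pairs, and in Ago2-IP in 25 of 86, 44 of 93 and 37 of 87.

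Some members have near copies whose reads cannot be assigned safely with 36-base reads, and the handling of reads with several matches was not given in the sources used here. Of the 105 placed members, 32 held at least 1 window of 36 bases that occurs elsewhere in the genome, and for 7 this was at least 50% of the windows. SNORA7A and SNORA7B, at RPL32 and in a second locus, were 98.6% identical and differed at 2 positions, and their levels are uncertain. The values of SNORA7A, 5.56, 57.7 and 23.3 RPKM in Ago2-IP, were also the only ones that gave no whole reads. Of the sequences shown, SNORA63 had 15% of such windows, and SNORA4, SNORA64, SNORA23 and SCARNA5 had none.

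The genes for the proteins of the H/ACA particles were lower in Ago2-IP as deposited. DKC1, the pseudouridine synthase dyskerin, stood at 83.2, 54.8 and 67.0 RPKM in total RNA against 9.25, 10.8 and 7.50 RPKM. The other core proteins NHP2, NOP10 and GAR1 were lower in Ago2-IP in every condition, and so were the assembly factors NAF1, SHQ1, RUVBL1 and RUVBL2. Of the 14 genes of core proteins, assembly factors and Cajal body or cap factors that were measured, all 14 were lower in Ago2-IP in each condition, as were 86.1%, 81.6% and 87.1% of all genes, with median log2 ratios of −2.89, −2.33 and −3.23. After scaling 12, 13 and 11 of them were lower, with 49.3%, 49.1% and 48.2% of all genes. The exceptions were NPAT in each condition (as deposited −0.31, −0.34 and −0.23), TGS1 without transfection and with *miR-497*, and SHQ1 with *miR-497*. Introns of DKC1 host SNORA36A and SNORA56, which stood at no more than 1.25 RPKM in total RNA and 4.52 RPKM in Ago2-IP. TERC, the telomerase RNA, which ends in an H/ACA domain but carries another name, stood at 0.179, 0.151 and 0.215 RPKM against 5.14, 11.4 and 5.41 RPKM. TERT, the telomerase protein, stood at 1.92, 1.17 and 2.00 RPKM against 0.992, 1.13 and 0.585 RPKM, lower as deposited and higher after scaling. TERC differed between the fractions in the direction of the members, with log2 ratios of 4.84, 6.24 and 4.65. Its total RNA values were low. They cannot be set against the worth of 1 read at the members' median length, since that worth depends on the length of the gene. Reads were not inferred for TERC, so its ratios have no counting interval and are uncertain.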

How the data were processed

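Ago2-IP and total RNA of HepG2 cells were sequenced in 6 libraries, 1 per group, with groups taken from the sample labels. The authors prepared libraries with an mRNA kit, aligned single reads of 36 bases with ELANDv2 against hg19, and used CASAVA 1.7 to obtain the deposited RPKM values. The annotation, read filters, strand setting and treatment of repeated matches are not given in the sources used here. The RPKM values were used as deposited, and 0 value columns were left unmatched.

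The members and lists were chosen with earlier results of these data known. Members were counted as detected at an RPKM above 0, and ratios used members above 0 in both libraries. Limits of 4-fold (Ago2-IP over total RNA) and 2-fold (mimic over non-transfected) were descriptive, and no p-value was calculated with 1 library per group. Named members were the 15 highest by mean Ago2-IP and the 10 highest by mean total RNA, the 5 highest and 5 lowest ratios among 35 members with 10 or more reads in each library, SCARNA15 and each SCARNA gene seen in total RNA. Other members are named where a count of 5 or fewer, a shared host or letters of the sequence picked them, after their values were seen.

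Reads were inferred as whole numbers (within 0.01) from RPKM and RefSeq lengths. This succeeded for 123 of 124 members, 115 of them at the RefSeq length and 8 at a length found within 60 bases. On simulated reads of the 124 members 100% of values were recovered. The simulated lengths differed from RefSeq for 8 members and by a few bases only. The simulation therefore does not cover larger differences, such as that of SNORA81. Ratios carry exact (Clopper-Pearson) 95% counting intervals, and a 0 was compared at a floor of 3 reads. RefSeq symbols matched 116 members and older symbols 8. Members were placed on GRCh37 with GENCODE release 44, and 1 further sequence is not reported here. Pseudocounts of 0.1 and 1 RPKM, an RPKM of at least 1, a 2-fold limit and scaling by the median RPKM of genes above 0 in all 6 libraries were tried as alternatives, and 2 more were added after the data had been seen. The work used samtools 1.23.1, matplotlib 3.10.9 and pysam 0.24.0 with scipy 1.17.1, pandas 2.3.3 and numpy 2.4.6 under Python 3.11.15.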

Additional observations from a re-analysis of the deposited data

Results flagged for a closer look

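The members' median log2 ratio of mimic over non-transfected had opposite signs in the 2 fractions. It was 1.73 in Ago2-IP and −0.082 in total RNA with *miR-195*, and 0.99 in Ago2-IP and −0.019 in total RNA with *miR-497*. The total RNA medians lie close to 0, the first of them turned sign at an RPKM of at least 1, and the difference between the fractions was not tested, since there is 1 library per group.

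2 named members differed between the mimics in Ago2-IP, with counting intervals of the 2 ratios on opposite sides of 1. SCARNA2 was higher than without transfection with *miR-195* (log2 ratio 1.09) and lower with *miR-497* (−0.54). SCARNA10 was lower with *miR-195* (−0.30) and higher with *miR-497* (0.16). Scaled to the median gene the ratios were 0.57 and −0.27 for SCARNA2 and −0.81 and 0.43 for SCARNA10, so the opposite signs remained. All 4 ratios share the non-transfected library, and the difference between the mimics was not tested.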

How the results depend on the processing

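Leaving out a replicate was not possible with 1 library per group. No paired analysis was possible because the result comes from no test. The low member levels in total RNA limit the ratios most. At an RPKM of at least 1, detection fell to 61, 58 and 63 members there (non-transfected, *miR-195*, *miR-497*) and was within 1.5 times in Ago2-IP. The median log2 ratio of Ago2-IP to total RNA was 1.35, 2.91 and 1.97 with a pseudocount of 1 RPKM, which shrinks the ratios of low members, 3.61, 5.00 and 4.75 after scaling by the median gene, and 3.29 with *miR-195* at an RPKM of at least 1. Over members with 10 or more reads in every library it was 1.27 without transfection and 2.19 with *miR-497*. The count at least 4-fold higher was 22, 43 and 38 at an RPKM of at least 1, where fewer members are compared. Without transfection it was 27 with the pseudocount of 1 and 86 after scaling. The *miR-195* median in Ago2-IP was 1.22 after scaling. The total RNA median with *miR-195* turned from −0.082 to 0.091 at an RPKM of at least 1, and the cause was not tested. The other settings moved no count by over 1.5 times and turned no sign.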
